A study of Mus musculus with 12 samples.

Results

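The cells described here were 1302 of 53940 effector T cells (Teff) that carried a high deposited cell-cycle score. They were chosen by those scores: a cell was a member when its S score or its G2M score, which the authors computed from expression of S-phase and G2/M genes, exceeded 0.2. The control Teff library held 464 members among 25912 cells, and the anti-CD137 Teff library held 838 among 28028. The whole series held 100540 cells in 6 sorted libraries.

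All mice were wild-type C57BL/6, and all T cells were CD8+ cells taken from spleen. For 14 days, 5 mice received 10 µg of the anti-CD137 antibody 3H3 in 2 injections per week, and 10 mice received 100 µg of the Ig control HRPN on the same schedule. From each treatment, Teff cells were sorted as CD44hi and PD1-, precursor exhausted cells (Tpex) as CD44hi PD1+ Slamf6+ Tim3-, and exhausted cells (Tex) as CD44hi PD1+ Slamf6- Tim3+. Each population gave 1 gene expression library and 1 T cell receptor library made with a 5′ droplet kit. Cells were not assigned to single mice, so treatment and library cannot be told apart here, no test over replicates was possible, and every interval given is a 95% interval for counting error only. Cells of 1 clonotype share their source, which these intervals do not take into account.

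CD137, also called 4-1BB, is a costimulatory receptor that T cells acquire on activation, and agonist antibodies to it drive CD8+ T cell division. A T cell divides into daughters that carry the same rearranged receptor, so the pair of alpha (TRA) and beta (TRB) chains marks a clonal family. The scores came from the expression libraries, so receptor measures did not enter the choice of members. Receptors were read from the same cells, however, and their chain counts were higher in members, as given below. The files used here hold no values for single genes. Neither the label "cycling" nor the sorted identity could therefore be checked against marker genes, and the members are called high-scoring Teff cells, the others remaining Teff cells.

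Most members lay well beyond the threshold. The higher of the 2 scores had a median of 0.416 among control members and 0.506 among anti-CD137 members, against 0.000505 and -0.0109 in the remaining cells. In the control library 211 members passed on the S score alone, 109 on the G2M score alone and 144 on both. In the anti-CD137 library these counts were 338, 144 and 356. Just inside the threshold, between 0.2 and 0.25, lay 88 control and 83 anti-CD137 members. Just outside it, between 0.15 and 0.2, lay 223 control and 164 anti-CD137 cells. A score above 0.5 was reached by 190 control and 428 anti-CD137 members.

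**Figure D1:**
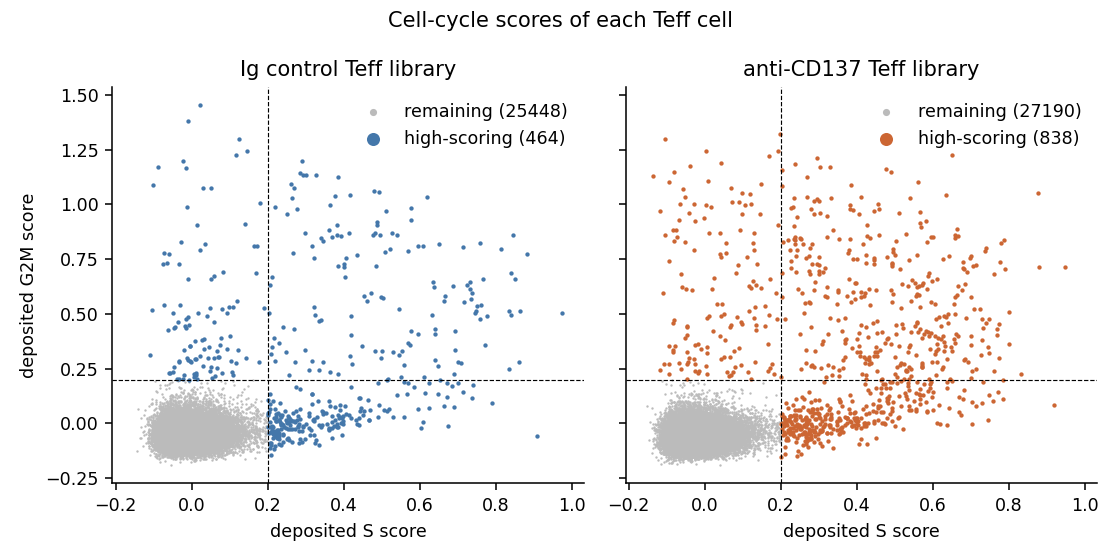
Deposited S score (x axis) and G2M score (y axis) of each Teff cell, with members in colour, remaining cells in grey and dashed lines at 0.2. The anti-CD137 library holds 428 cells with a score above 0.5 and the control library 190, and in both the band just above the threshold on the S score borders a dense cloud of remaining cells.

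High-scoring cells made up 1.79% (1.63 to 1.96) of control Teff cells and 2.99% (2.79 to 3.20) of anti-CD137 Teff cells. The anti-CD137 library was higher by 1.20 percentage points (0.940 to 1.46). This order depended on where the scores were divided. At a threshold of 0.1 the shares were 5.53% and 5.52%, and the difference was -0.0146 points (-0.404 to 0.374). At 0.15 it was 0.924 points, at 0.3 it was 1.14 and at 0.5 it was 0.794, all with the anti-CD137 library higher. Both Teff libraries held far smaller shares than the PD1+ libraries, where the Tpex values were 9.16% (control) and 9.74% (anti-CD137) and the Tex values 29.1% and 19.3%.

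The difference between the treatments lay among the cells with more RNA molecules counted. Depth was measured as unique molecular identifiers (UMIs) per cell. Below 2000 UMIs the high-scoring share was 1.29% in the control library and 1.28% in the other. From 2000 to 3000 UMIs the anti-CD137 library was lower, at 0.752% against 1.22%, a difference of -0.465 points (-0.928 to -0.0346). From 5000 to 7000 UMIs it was higher, at 3.47% against 1.48%. Between 7000 and 10000 UMIs the shares were 9% and 4.99%, and from 10000 UMIs upward they were 28.6% and 14.8%, a difference of 13.8 points (9.89 to 17.7). Averaged over the 7 depth bins, weighted by the cells of both libraries, the difference was 1.25 points, close to the unmatched value. Among all cells with at least 5000 UMIs, the high-scoring share was 7.79% with anti-CD137 and 3.64% in control.

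**Figure D2:**
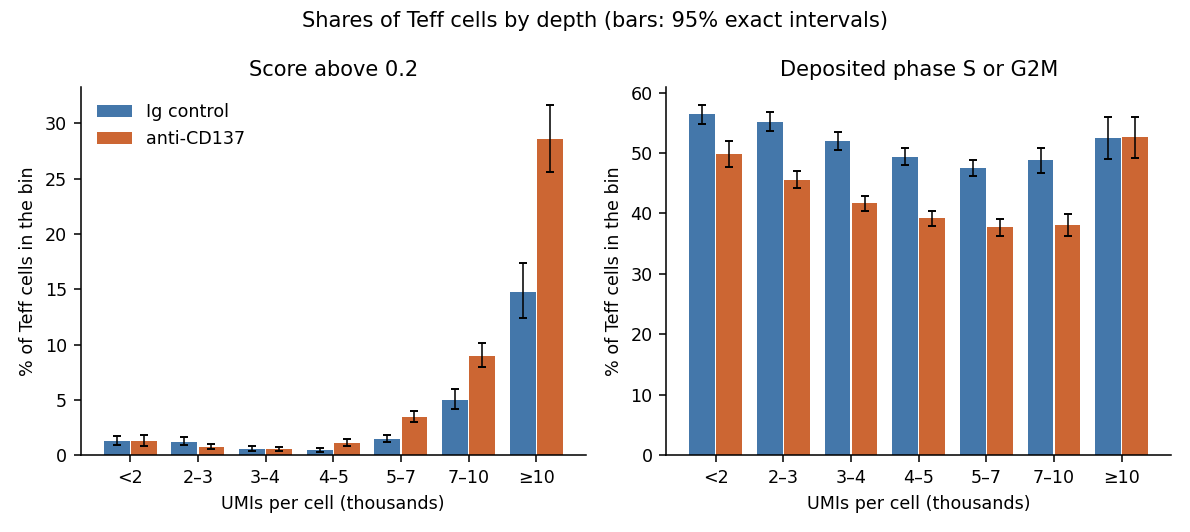
Share of Teff cells with a score above 0.2 (left) and with a deposited phase of S or G2M (right) in 7 bins of UMIs per cell, with 95% exact intervals. The high-scoring share separates above 4000 UMIs with anti-CD137 higher, while the phase share is higher in the control library in the 6 bins below 10000 UMIs.

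The deposited phase labels went the other way. S or G2M was assigned to 41.8% of Teff cells with anti-CD137 and to 51.3% of those with Ig control, a difference of -9.53 points (-10.4 to -8.69). Most of these labels sat on cells with low scores. Of the remaining cells, 50.4% of the control and 40.0% of the anti-CD137 library carried S or G2M, although neither of their scores passed 0.2. No member was labelled G1, which follows from the choice by score. Phase S was assigned to 59.3% of control members and 59.7% of anti-CD137 members, and the others were labelled G2M. The split of members between the 2 phases was thus much the same in both libraries, and a phase call alone did not separate members from the rest.

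Members were deeper than the remaining cells. Their median depth was 7174 UMIs against 4157 in the control library and 7734 against 3986 in the anti-CD137 library. Median detected genes were 2359 against 1530 and 2526 against 1482. Ribosomal protein genes took a median of 32.6% of UMIs in control members against 37.1% in the remaining cells, and 27.5% against 38.2% in the anti-CD137 library. The mitochondrial share was also lower in members, at 2.07% against 2.29% and 1.42% against 1.65%. These values come from the same expression profiles as the scores and are given as a description. Cells could not be thinned to a common depth without gene counts, so depth was matched in bins.

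The clusters deposited by the authors placed a larger share of members than of remaining cells outside the bulk of the Teff cells. Clusters 0 and 2 were almost wholly Teff, with 97.8% and 99.6% of their cells from the Teff libraries. They held most remaining cells but a smaller share of members: 50.2% of control and 76.7% of anti-CD137 members lay outside them, against 9.84% and 10.4% of remaining cells. Matched for depth, the values were 50.2% against 10.2% and 76.7% against 11.3%. The clusters were built from the same expression profiles as the scores, so this is a description as well.

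Cluster 1 held the most anti-CD137 members. It took 37.6% of them (34.3 to 41.0) and 26.3% of control members (22.3 to 30.5), against 1.70% and 1.86% of remaining cells. Most cells of this cluster had been sorted as Tpex, and 5.72% of its 23985 cells came from the Teff libraries. Within it, 40.5% of the Teff cells with anti-CD137 and 20.5% of those in control were high-scoring, against 6.85% of the cells from PD1+ libraries. The PD1+ value joins both treatments and was not matched for depth. Of the cluster's cells, 46.2% came from the anti-CD137 Tpex library, which had a median of 1950 UMIs per cell. Among cells with at least 5000 UMIs, the whole Tpex libraries were high-scoring in 17.8% (control) and 41.7% (anti-CD137) of cases. Control members of cluster 1 had a median depth of 8926 UMIs and a median higher score of 0.667, and 73.8% of them passed 0.5. Anti-CD137 members there had 7707 UMIs and 0.575.

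Cluster 5 took 14.7% of control and 19.5% of anti-CD137 members, against 1.13% and 1.45% of remaining cells. Most cells of cluster 5 had been sorted as Tpex, 57.7% with anti-CD137 and 12.9% in control. Its Teff cells were high-scoring in 19.1% and 29.2% of cases, and its cells from PD1+ libraries in 22.1%. Cluster 6, a cluster with 95.7% of its cells from Teff, took 2.80% of control members (1.5 to 4.74) and 10.4% of anti-CD137 members (8.40 to 12.6). Within it the high-scoring share was 2.28% in control and 6.70% with anti-CD137. Clusters 3 and 4, made up mostly of Tex cells, held few Teff cells, and most of those were members. In cluster 3 members were 4 of 6 Teff cells in control and 39 of 54 with anti-CD137, and in cluster 4 they were 8 of 9 and 20 of 25. Cells from PD1+ libraries were high-scoring in 37.0% of cases in cluster 3 and 11.3% in cluster 4.

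Members were also found inside clusters 0 and 2. Cluster 2 held the most control members, 138 of 464 or 29.7% (25.6 to 34.1), and cluster 0 a further 20.04% (16.5 to 24.0). In the anti-CD137 library these shares were 17.1% and 6.21%. In cluster 0, control members were shallow, with a median of 2464 UMIs and a median higher score of 0.291. The 52 anti-CD137 members of cluster 0 had 5467 UMIs and 0.516. Cluster 2 members had 7575 and 7589 UMIs, near the median of all members. There the median higher score was 0.328 in control and 0.327 in anti-CD137 members, and 77.5% and 85.3% of them were labelled S. As a share of all Teff cells, members of clusters 0 and 2 were not more frequent with anti-CD137. They were 0.359% of control and 0.186% of anti-CD137 cells in cluster 0, and 0.533% and 0.510% in cluster 2. Members of cluster 1 were 0.471% and 1.12% of all Teff cells, those of cluster 5 were 0.262% and 0.582%, and those of cluster 6 were 0.0502% and 0.310%.

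**Figure D3:**
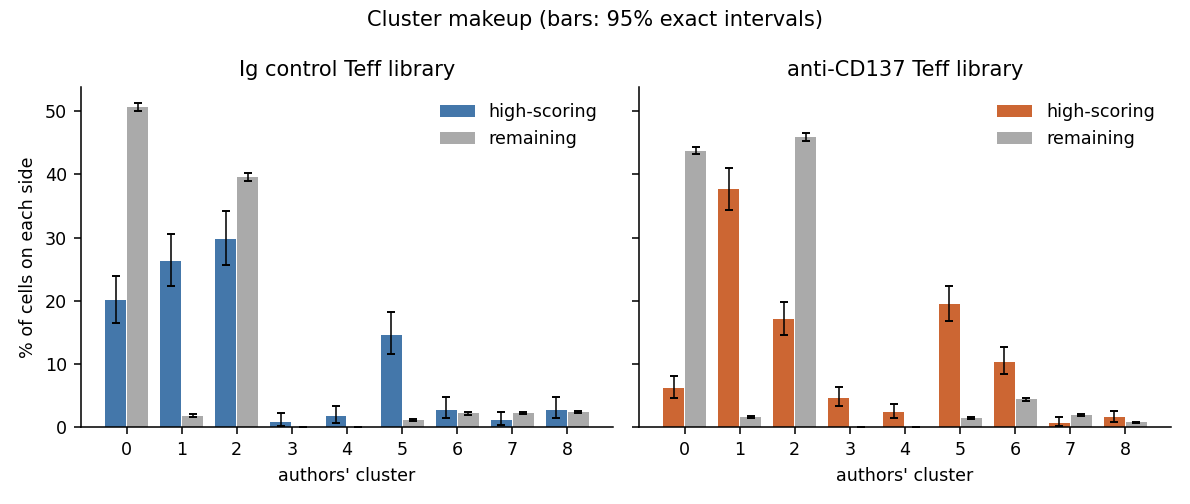
Percent of high-scoring (colour) and remaining (grey) Teff cells in each of the authors' 9 clusters, with 95% exact intervals. Remaining cells fill clusters 0 and 2, while control members reach 20.04% in cluster 0 and 29.7% in cluster 2, and members of the 2 libraries reach 26.3% and 37.6% in cluster 1, 14.7% and 19.5% in cluster 5, and 10.4% in cluster 6 of the anti-CD137 library.

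Receptors were read in most members. Both chains were found in 337 of 464 control members (72.6%) and 667 of 838 anti-CD137 members (79.6%), against 67.1% and 72.0% of remaining cells. The TRB chain had a median of 13 UMIs in control members against 9, and of 15 against 9 in the anti-CD137 library. A clonotype was defined as a pair of TRA and TRB CDR3 nucleotide sequences, the CDR3 being the stretch across the joined segments that contacts the antigen peptide. The chain with most UMIs was used where a cell had several.

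High-scoring Teff cells belonged to expanded clonotypes, those with at least 2 Teff cells, far more often than the remaining cells did. In the control library 41 of 337 members were expanded, or 12.2% (8.87 to 16.1), against 3.54% of remaining cells, a difference of 8.62 points (5.32 to 12.6). In the anti-CD137 library 153 of 667 members were expanded, or 22.9% (19.8 to 26.3), against 3.89%, a difference of 19 points (15.9 to 22.4). Members of the 2 libraries differed by 10.8 points (5.71 to 15.5), whereas remaining cells differed by 0.348 points (-0.0449 to 0.738). With both libraries thinned to 17420 cells with paired chains, 22.0% of anti-CD137 and 12.2% of control members were expanded. Thinning did not level the cells per mouse, since control pooled 10 mice and anti-CD137 5. The bearing of this on expansion was not tested. Matched for depth, over bins with at least 20 cells on both sides, the values were 9.59% against 0.582% in control and 22.3% against 1.45% in anti-CD137 Teff cells. These bins held 271 of the 337 control members, all with at least 5000 UMIs, and 642 of the 667 anti-CD137 members. Below 2000 UMIs, 1 of 13 control members was expanded, against 16.6% of remaining cells. In each control bin from 2000 to 5000 UMIs the share was higher in members.

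The high-scoring share was larger in clonotypes of more than 1 Teff cell, in both libraries. Cells with a receptor seen in 1 Teff cell were high-scoring in 1.76% of control and 2.66% of anti-CD137 cells. For receptors in 2 cells the shares were 4.94% and 9.91%. At 3 to 4 cells they were 11.7% (6.17 to 19.5) and 25.7% (19.3 to 33.1), and at 5 or more cells 8.77% (2.91 to 19.3) and 21.1% (16.7 to 25.9). The last 2 size classes overlapped within each library. Anti-CD137 members labelled G2M were expanded in 30.7% of cases (25.3 to 36.6) and those labelled S in 17.6% (14.0 to 21.7), while the control values were 13.5% and 11.2%.

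Much of the expansion lay in particular clusters. In cluster 1, 22.8% of control members (15.02 to 32.2) and 33.5% of anti-CD137 members (27.8 to 39.6) were expanded, against 10.1% and 19.4% of the remaining Teff cells there. With at least 5000 UMIs, the cluster 1 differences were 9.54 points (-2.14 to 20.9) in control and 9.95 points (-5.11 to 21.7) with anti-CD137. Both of these intervals include 0. Over the depth bins that held 65 anti-CD137 members of cluster 1, the values were 36.9% against 15.4%. Anti-CD137 members of cluster 6 were expanded in 51.6% of cases, and the remaining cells in 53.0%, a difference of -1.45 points (-14.8 to 11.7). Among those with at least 5000 UMIs, the order turned, at 55.1% of 49 members against 36.3% of 124 remaining cells, a difference of 18.8 points (1.37 to 35.4). Members of cluster 5 were mostly single: 2 of 63 in control and 0 of 135 in the anti-CD137 library were expanded. The latter allows a share of up to 2.22% when 3 counts are taken as the limit of a count of 0. Remaining cells of cluster 5 were expanded in 1.27% of cases in control and 3.55% with anti-CD137. The anti-CD137 difference there was -3.55 points (-6.26 to -0.327), and -0.812 within depth bins. In cluster 2, 6 of 106 control and 1 of 114 anti-CD137 members were expanded, against 1.86% and 1.63% of remaining cells. Matched for depth, these cluster 2 differences were -0.589 and 0.155 points. In cluster 0, 2 of 40 and 0 of 36 members were expanded, against 3.69% and 1.08%. Averaged within clusters, an alternative chosen after seeing the data, the difference between members and remaining cells was 5.04 points in the anti-CD137 library instead of 19, and 6.52 in control. Within clusters and depth bins together it was 8.02 and 7.22 points. Both averages set no minimum of cells and have no interval.

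Cells of 1 clonotype tended to share a high score. For an expanded member of the control library, on average 67.5% of the other cells of its clonotype were members too, against 2.20% for an expanded remaining cell. In the anti-CD137 library these values were 45.6% and 10.9%. Among all expanded Teff cells, members were 6.35% in control and 16.7% with anti-CD137. Of the expanded clonotypes, 23 of 284 in control and 80 of 305 in the anti-CD137 library contained a member. At least 2 members were found in 16 and 36 clonotypes, and every cell was a member in 11 and 16. Among the control clonotypes with every cell a member, 2 had the same TRA sequence and different TRB chains. Each had 2 cells, of which 2 and 1 held more than 1 TRB chain. Whether they are 1 family was not tested.

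The 5 clonotypes with most members in each library are described next. CDR3s are printed for the 5 of these 10 with most members whose V segment could be matched to the reference. Those using TRBV10 are not printed, since its reference transcript matched only the opening 3 bases of the CDR3. In each line the capitals mark bases matching neither the V nor the J segment of the GENCODE M21 transcripts, which include D bases, added bases and any mismatch.
anti-CD137 TRBV12-2+TRBV13-2 TRB: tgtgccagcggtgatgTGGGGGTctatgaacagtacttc
anti-CD137 TRBV12-2+TRBV13-2 with TRAV4-3 TRA: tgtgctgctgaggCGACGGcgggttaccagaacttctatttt
anti-CD137 TRBV14 TRB: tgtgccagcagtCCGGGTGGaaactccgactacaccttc
anti-CD137 TRBV14 with TRAV6-3 TRA: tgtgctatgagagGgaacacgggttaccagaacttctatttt
anti-CD137 TRBV12-1 TRB: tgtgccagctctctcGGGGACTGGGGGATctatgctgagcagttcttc
anti-CD137 TRBV12-1 with TRAV17 TRA: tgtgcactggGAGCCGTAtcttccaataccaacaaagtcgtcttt
control TRBV19 TRB: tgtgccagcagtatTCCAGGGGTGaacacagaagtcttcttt
control TRBV19 with TRAV14N-3 TRA: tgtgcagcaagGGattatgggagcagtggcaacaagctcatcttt
control TRBV5 TRB: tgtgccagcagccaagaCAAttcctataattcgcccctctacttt
control TRBV5 with TRAV3N-3 TRA: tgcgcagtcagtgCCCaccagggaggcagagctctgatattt

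The TRB segments lie on the plus strand of chromosome 6 and the TRA segments on that of chromosome 14 in mm10. The V segments of the printed chains are annotated as T cell receptor V genes, and TRBV10 as a V pseudogene. TRBV14 lies at chr6:41135145-41135616, TRBV12-1 at chr6:41113550-41114067, TRBV19 at chr6:41178375-41179048 and TRBV5 at chr6:41062332-41062803. The combined name TRBV12-2+TRBV13-2 is that of the deposited file, and its 2 segments lie at chr6:41118851-41119364 and chr6:41121396-41121832. The unmatched stretch of the TRB chain was 7, 8 and 14 bases long in the 3 anti-CD137 families and 10 and 3 bases in the 2 control families.

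The largest high-scoring family of the anti-CD137 library was TRBV12-2+TRBV13-2 with TRAV4-3. It counted 14 members among 23 Teff cells, 12 of them in cluster 1 and 2 in cluster 6. Its 9 remaining cells comprised 2 in cluster 1 and 7 in cluster 6. Of the members, 10 were labelled S and 4 G2M. The TRBV10 family with TRAV7-4 had 7 members of 19 cells, and the 12 of its cells in cluster 6 included 1 member while the 5 in cluster 3 included 4. TRBV14 with TRAV6-3 had 6 members of 12 cells, and its TRB chain alone was found in 23 Teff cells. The other TRBV10 family, with TRAV12-2, had 6 of 6. TRBV12-1 with TRAV17 had 4 of 13, all labelled G2M. None of these 5 receptors was found in any cell of the anti-CD137 Tpex or Tex libraries, nor was its TRB chain alone.

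Control families were smaller, in a pool of 10 mice against 5. TRBV19 with TRAV14N-3 had 3 members of 4 cells, in clusters 4 and 6. TRBV5 with TRAV3N-3 had 3 of 3, all in cluster 2 and all labelled S. TRBV15 with TRAV16D-DV11 had 2 of 13, and 10 of its cells lay in cluster 6 with no member among them. TRBV13-3 with TRAV4N-3 had 2 of 5 Teff cells, and it was the only 1 of the 5 with cells in a PD1+ library, 12 of them in control Tex. TRBV10 with TRAV21-DV12 had 2 of 3. In the families with members and remaining cells together, the members were deeper, except for TRBV19 with TRAV14N-3, at a median of 7107 UMIs against 9971 for its 1 other cell.

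**Figure D4:**
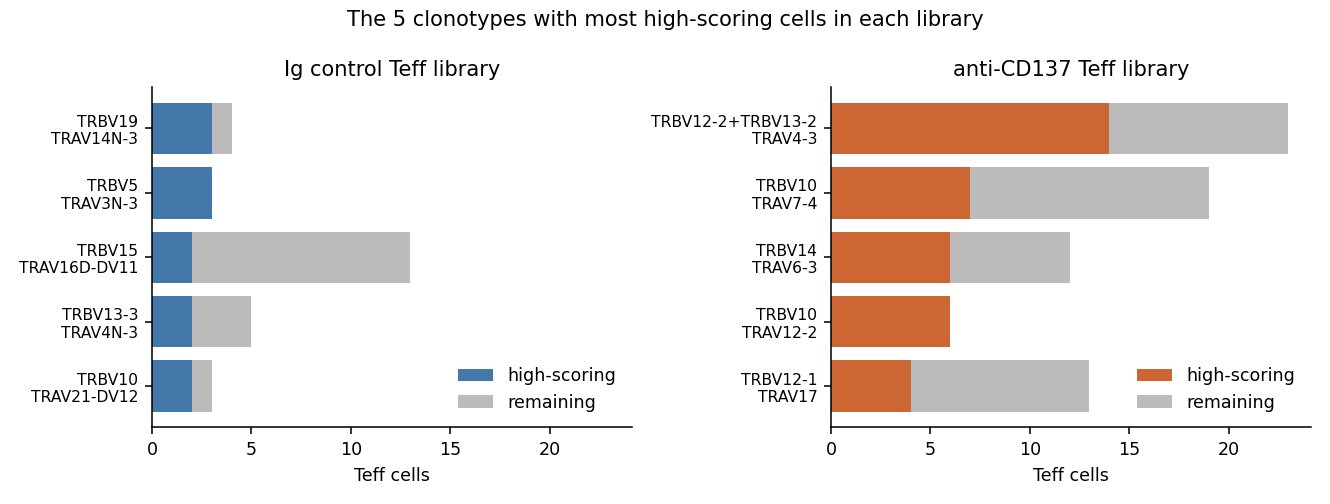
Teff cells of the 5 clonotypes with most members in each library, named by their V segments, with members in colour and remaining cells in grey. The anti-CD137 families reach 14 members of 23 cells, while no control family exceeds 3 members.

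Receptors of members were also found in PD1+ cells of the same treatment more often than those of remaining cells. In control, 14 of 337 members shared their receptor with a Tpex or Tex cell, or 4.15% (2.29 to 6.87), against 0.726%, a difference of 3.43 points (1.56 to 6.15). With anti-CD137, 18 of 667 did, or 2.70% (1.61 to 4.23), against 0.910%, a difference of 1.79 points (0.688 to 3.33). The 2 libraries' members differed by -1.46 points (-4.38 to 0.958), an interval that includes 0. Control members matched Tpex receptors in 3.26% of cases and Tex receptors in 1.78%. For anti-CD137 members these shares were 1.35% and 2.25%. The background was low: 0 of 337 and 0 of 667 members had a receptor of the other treatment's libraries, which allows shares of up to 0.890% and 0.450% by the same limit of 3 counts.

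Most sharing members lay in cluster 1, with 10 of 14 in control and 15 of 18 in the anti-CD137 library, and the others were in clusters 3, 4 and 6. Inside clusters of the anti-CD137 library the comparison with remaining cells depended on depth, while in control cluster 1 its direction did not. In control, 9.90% of members (4.85 to 17.5) and 13.0% of remaining cells in cluster 1 shared a receptor with PD1+ cells, a difference of -3.10 points (-9.43 to 5.12). With at least 5000 UMIs the control cluster 1 difference was -2.16 points (-13.0 to 8.36), from 87 members and 80 remaining cells. With anti-CD137 the values were 5.77% (3.27 to 9.34) and 10.6%, a difference of -4.82 points (-9.34 to -0.118). With at least 5000 UMIs, however, 11 of 223 anti-CD137 members and 0 of 48 remaining cells of cluster 1 shared, a difference of 4.93 points (-2.86 to 8.65). In cluster 6 of the anti-CD137 library 1 of 64 members shared, or 1.56%, against 16.3% of remaining cells, a difference of -14.8 points (-17.9 to -7.49). With at least 5000 UMIs these were 1 of 49 and 4 of 124, a difference of -1.18 points (-6.41 to 7.93). Matched for depth, over the bins that held 22 of these members, the cluster 6 values were 4.55% against 0%. Averaged within clusters, the difference turned to -0.232 points in control and -3.08 points with anti-CD137. Within clusters and depth bins together, again with no minimum of cells, it was 0.415 and 1.36 points. These alternatives and the values from 5000 UMIs upward were chosen after seeing the data.

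Among expanded Teff cells alone, sharing was 14.6% in control members (5.57 to 29.2) against 10.2% in remaining cells, a difference of 4.39 points (-5.07 to 19.1). It was 7.84% in anti-CD137 members (4.12 to 13.3) against 16.6%, a difference of -8.71 points (-13.4 to -2.68). Matched for depth, over the bins that held 89 of these members, the anti-CD137 values were 8.99% against 6.53%, so the direction turned. With at least 5000 UMIs the difference was -0.648 points (-8.34 to 6.81), from 123 members and 113 remaining cells. Among cells whose receptor was seen in 1 Teff cell, members shared more in both libraries, at 2.70% against 0.376% in control and 1.17% against 0.277% with anti-CD137.

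The sharing members came from several clonotypes, with 12 in control and 15 in the anti-CD137 library. In control, 7 of the 12 were found in Tpex alone, 2 in Tex alone and 3 in both. With anti-CD137, the counts were 3, 6 and 6. Their PD1+ relatives numbered 55 cells in control, of which 25.5% were themselves high-scoring, and 57 with anti-CD137, of which 15.8% were. The PD1+ relatives of sharing Teff cells without a member were high-scoring in 22.2% and 14.9% of cases. Cell barcodes occurred in more than 1 library: each Teff library had between 373 and 941 barcodes in common with each other library, or 1.33% to 3.63% of its cells. In 0 of these barcodes was the receptor the same, and 0 of the sharing cells carried the barcode of a PD1+ cell with its receptor.

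Deep remaining cells often held several beta chains, and deep members did less. A T cell usually expresses a single TRB chain, so a barcode with more can hold several cells. Over all depths the shares were close, at 14.8% of control members against 15.8% and 18.6% of anti-CD137 members against 17.6%. With anti-CD137, members had the larger share in cluster 1, at 16.5% against 10.0%, and in cluster 6, at 28.1% against 9.67%. Over depth bins that held 65 and 22 of these members, the order turned, at 13.8% against 30.8% and 31.8% against 46.9%. In clusters 2 and 5 members were lower. In control, 5 of 17 members from 3000 to 4000 UMIs had several chains, against 6.75% of remaining cells. From 4000 to 5000 UMIs it was 0 of 18, against 6.20%. From 7000 to 10000 UMIs, 8.57% of control members (3.99 to 15.6) and 52.5% of remaining cells had more than 1 TRB chain. With anti-CD137 these shares were 19.3% (14.3 to 25.3) and 67.8%. From 10000 UMIs upward they were 22.4% against 76.2% in control and 31.2% against 73.2% with anti-CD137. Comparisons matched for depth therefore set members beside remaining cells of which many had several TRB chains. Without such cells and still within depth bins, an alternative chosen after seeing the data, members exceeded remaining cells in expansion by 10.8 points in control and 22.3 with anti-CD137. No doublet caller could be run, and the part of doublets in the high-scoring share was not tested. Leaving out cells with more than 1 TRB chain, the anti-CD137 library exceeded control by 1.13 points (0.857 to 1.41).

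**Figure D5:**
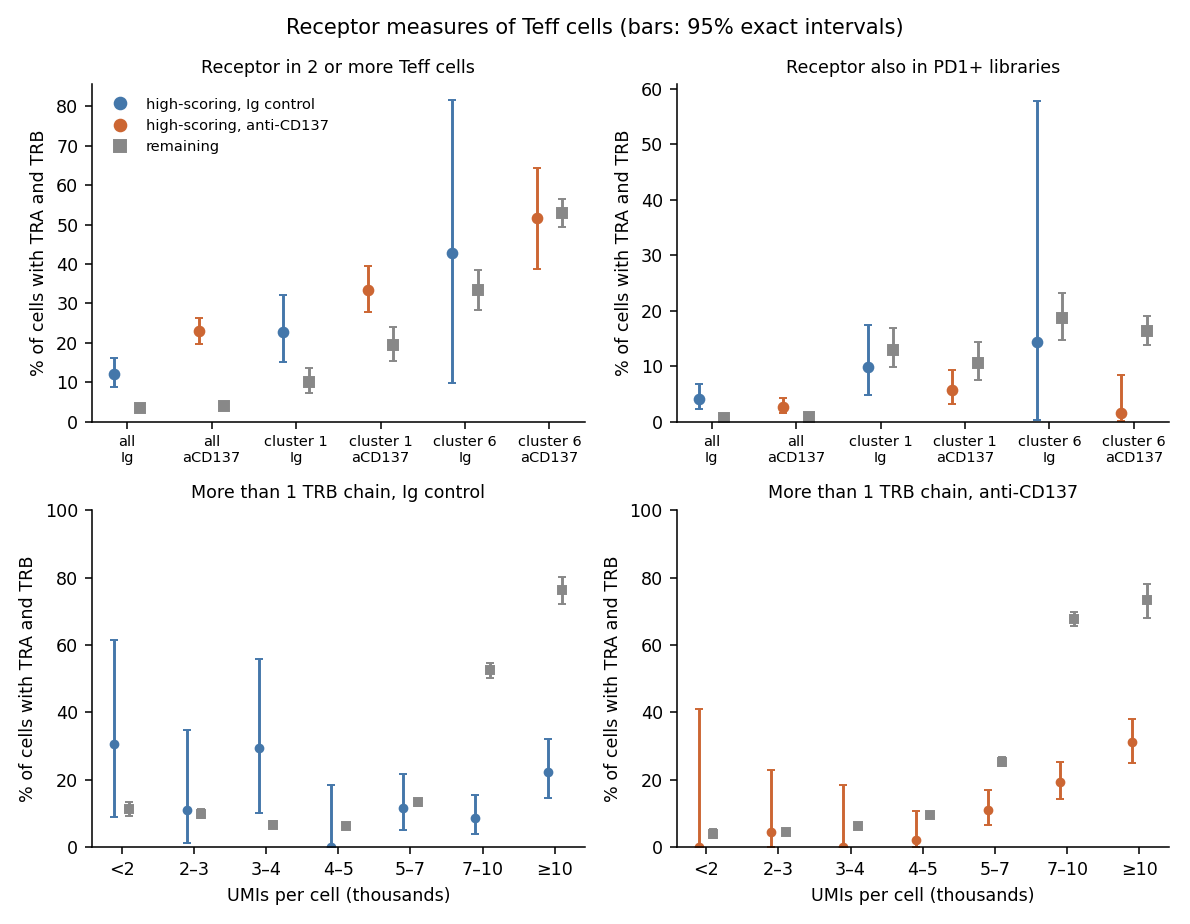
Percent of Teff cells with both chains whose clonotype had 2 or more Teff cells (top left), was also in PD1+ libraries (top right) or that had more than 1 TRB chain by UMIs per cell (bottom), for members (colour) and remaining cells (grey), with 95% exact intervals; Ig marks the control. Members are higher in both top panels over all cells, sharing in clusters 1 and 6 has lower values in members at all depths together, and above 7000 UMIs remaining cells carry several TRB chains in over 50% of cases.

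Beta-chain V segments differed little between members and remaining cells. Segments used by at least 1% of cells on either side were compared, and a segment was called when its 2 exact intervals did not overlap. In control Teff cells, 0 of 19 segments were called, a background of 0%. With anti-CD137, 1 of 20 was called, or 5%: TRBV12-2+TRBV13-2, used by 80 of 667 members, or 12% (9.63 to 14.7), against 8.55% of remaining cells. The family with 14 members described above carries this combined name. TRBV13-2 under its own name went the other way, at 0.450% of members (0.0929 to 1.31) against 1.13%, and was not called. The 2 names were counted apart, and a joined count was not made, so the call holds for the combined name only. Counted once per clonotype, the combined name was used by 10.1% of members (7.80 to 12.8) against 8.64%, and the intervals overlapped. In that count TRBV1, at 8.42% against 5.77%, and TRBV3, at 10.4% against 7.37%, were called instead among the 20 segments, each higher in members. In control clonotypes both were lower in members, at 5.64% against 5.90% and 6.58% against 7.66%, and neither was called.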

How the data were processed

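The authors deposited a table of cells and a table of receptor contigs for the 6 libraries. Counts of UMIs and genes per cell, the percent of mitochondrial and ribosomal UMIs, the S and G2M scores, phases and clusters were deposited by the authors. Reads were processed with Cell Ranger 3.0.2 on mm10 and cells with Seurat 4.0.0, per the submitters' processing notes. The table keeps cells with 501 to 3998 genes and at most 9.98% mitochondrial UMIs. Doublet handling before deposit is not stated in these sources. The 2 Teff libraries summed to 115297934 (control) and 126261864 (anti-CD137) UMIs.

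Each contig was matched to its cell through the library name and barcode (pandas 2.3.3). Intervals of shares were exact (Clopper-Pearson, scipy 1.17.1), and those of differences combined them by Newcombe's method. Interval coverage was tested on simulated counts of independent cells, which does not show coverage for cells that come in clonotypes. Depth matching averaged differences over UMI bins with at least 20 cells on both sides, weighted by members, or by all cells for the share of members. Averages within clusters, and within clusters and bins together, set no such minimum. They used every group with any cell on both sides and have no interval. Named clonotypes were the 5 with most members per library, named V segments those called, up to 5 per direction, and named clusters above all those with at least 5% of members or remaining cells. Members and lists were chosen with earlier results of these data known.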

Additional observations from a re-analysis of the deposited data

Results flagged for a closer look

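Opposite directions appeared in 4 comparisons of groups set side by side, and none of these contrasts between groups was tested. Among expanded Teff cells, PD1+ sharing of members minus that of remaining cells was 4.39 points in control and -8.71 points with anti-CD137. Within depth bins the anti-CD137 difference was 2.46 points, so the directions were then the same. In cluster 6 the expanded share of members minus that of remaining cells was 9.52 points in control, from 7 members, and -1.45 points with anti-CD137. With at least 5000 UMIs these were 27.1 and 18.8 points. The share with more than 1 TRB chain differed by -0.968 points in control and by 1.04 points with anti-CD137, both with intervals that include 0. The high-scoring share was 1.20 points higher with anti-CD137 in Teff cells and differed by -9.70 points in Tex cells, where the anti-CD137 library had a median of 3473 UMIs per cell and the control library 5619. Among Tex cells with at least 5000 UMIs the shares were 42.1% in control and 41.2% with anti-CD137.

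Receptor barcodes of the PD1+ libraries that are not in the table of cells, and so outside the main measurement, held the receptors of 2 further anti-CD137 members, which made 20 sharing members of 667. In control they added 0.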

How the results depend on the processing

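Of 87 alternatives to the 7 main differences (anti-CD137 minus control for the high-scoring share, members minus remaining cells for the rest, in percentage points), 84 kept the direction, and 61 stayed within the main interval. The 3 that turned were the high-scoring share at a threshold of 0.1 (-0.0146) and PD1+ sharing averaged within clusters (-0.232 in control, -3.08 with anti-CD137). Why the threshold turned the share was not tested. Values outside the main interval follow, control before anti-CD137 where both moved. At a threshold of 0.1, expansion gave 5.15 and 12.8, control PD1+ sharing 1.14, and the part outside clusters 0 and 2 gave 18.9 and 44.1. At 0.3 the last was 52.9 and 71.7. With the G2M score alone the high-scoring share gave 0.808, anti-CD137 expansion 22.9, and the part outside clusters 0 and 2 gave 52.4 and 76.2. Cells with both chains gave 47.3 for that part in control, and counting each clonotype once gave 46 there and 12 for anti-CD137 expansion. Control expansion by TRB alone was 12.7, and clonotypes of at least 3 cells gave 4.21 and 14.7. Among settings chosen after seeing the data, averaging within clusters gave 5.04 for anti-CD137 expansion, within clusters and UMI bins together gave 8.02 for it and 0.415 for control PD1+ sharing, cells with at least 5000 UMIs gave 4.15 for the high-scoring share and 48.5 for the control part outside clusters 0 and 2, and the Tex library alone gave 1.52 for control PD1+ sharing. No paired analysis was possible because each group is 1 library. The number of members limits values within clusters, such as the 7 control members with both chains in cluster 6.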
